A study of Homo sapiens with 7 samples.

Results

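The comparison of SHP2 sh2 with Ctrl shRNA took in 5 of the 7 arrays of the series, the 3 arrays labelled with the second hairpin against SHP2 and the 2 arrays labelled with the control hairpin. All 7 arrays carried RNA of SUM159 cells, a human triple-negative breast cancer line with mesenchymal features. The cells had been transduced with a lentiviral vector from which doxycycline induces a hairpin, CTRL miR in the Ctrl shRNA group, SHP2 miR1 in SHP2 sh1 and SHP2 miR2 in SHP2 sh2. They grew in 2D culture for 15 days, and per the labels every group, control included, received doxycycline. The study asked how SHP2 affects gene expression in breast cancer cells. One cell line stood for the disease here, and no label says whether the transduced cells were 1 clone or a pool. Whether a group's arrays stem from separate cultures is not stated either, so the p-values describe spread among arrays that could be only technical.

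SHP2, the product of PTPN11, is a protein tyrosine phosphatase that binds through its SH2 domains to phosphorylated receptors and to docking proteins such as GAB1. From there it relays signals of receptor tyrosine kinases to RAS, RAF, MEK and ERK, and ERK in turn drives transcription factors and feedback inhibitors such as DUSP6 and the Sprouty proteins. Tumour cells also express interferon-stimulated genes, which are switched on when interferon receptors act through JAK1 and TYK2 on STAT proteins and IRF9, and which bind these factors at a sequence called the interferon-stimulated response element.

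The values were log2 expression from robust multi-array averaging (RMA) on arrays with probes along each transcript, and a difference of 1 is a 2-fold difference in signal. A total of 18417 genes had a probe with 1 gene symbol. In limma, 0 of 18417 genes (0%) differed between SHP2 sh2 and Ctrl shRNA at an adjusted p under 0.05. With SHP2 sh2, 334 genes (1.81%) were lower and 98 genes (0.532%) higher at an unadjusted p below 0.05. Leaving out Ctrl shRNA replicate 1, Ctrl shRNA replicate 2, SHP2 sh2 replicate 2 or SHP2 sh2 replicate 3 moved the lower count to 173, 73, 204 and 539, and leaving out the first or the second control moved the higher count to 29 and 7. Without replicate 2 of both SHP2 hairpins 1127 genes were lower and 1106 higher, and with gene-by-gene array weights 2399 and 2290, so the excess of lower genes was not seen in these fits. Lower and higher below thus describe the values on these arrays. Fewer cells that express a gene and less RNA per cell cannot be told apart in such bulk RNA.

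SHP2 sh2 replicate 2 stood apart. Over all probes it correlated with the other 4 arrays of the comparison at 0.897 to 0.936, while those 4 correlated with each other at 0.984 to 0.992. Its values were also narrower, with a standard deviation of 1.92 against 2.09 to 2.14. Replicate 2 of SHP2 sh1 shared these features: it correlated with the controls at 0.941 and 0.938, with SHP2 sh1 replicate 1 at 0.930 and with SHP2 sh2 replicate 2 at 0.972. The difference from the control mean depended on how bright a gene was. Among the 25% of genes that were brightest on the controls, the median difference was −1.01 on replicate 2, −0.18 on replicate 1 and −0.04 on replicate 3. In the dimmest 25% it was 0.53 on replicate 2, 0.09 on replicate 1 and 0.06 on replicate 3. Genes that were bright in the controls were thus lower and dim genes higher on replicate 2, and on a smaller scale also on replicate 1. The part of this pattern in any result below was not tested. Several gene lists below were bright on the controls. Median control levels were 8.87 for G2/M and 8.98 for hypoxia and glycolysis genes, against 6.98 for all genes. Of the markers of the line, VIM (11.96 to 12.10 on the control arrays), FN1, CD44 and SNAI2 were bright, and CDH1, ESR1, PGR and EPCAM were dim. KRT8, set down as a marker that should be low, was not, at 10.90 and 10.70. ZEB1, CDH2 and ERBB2 were also set down as markers, and their levels are not given here. CDH1 lay 0.89, 1.80 and 0.29 above both controls on SHP2 sh2 replicates 1, 2 and 3. CDH2 lay 0.39 and 1.09 below both on replicates 1 and 2 and 1.41 above both on replicate 3.

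**Figure D1:**
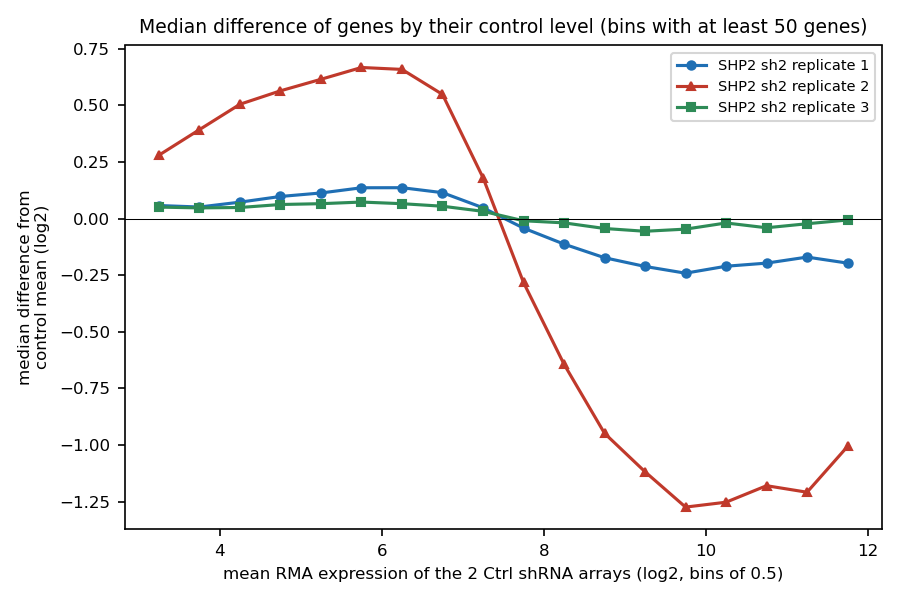
Median difference of each SHP2 sh2 array from the mean of the 2 Ctrl shRNA arrays (y axis, log2) for genes binned by that control mean (x axis, log2). The line of replicate 2 runs from above 0 at dim genes to below −1 at bright genes, while the lines of replicates 1 and 3 run between −0.24 and 0.14.

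To find the changes that held on every array, each gene's SHP2 sh2 arrays were set against both controls. A gene was counted as lower on an array if its value lay at least 1 (log2) below the lower control, and as higher if it lay at least 1 above the higher control. On replicate 1, 115 genes (0.624%) were lower and 23 (0.125%) were higher. On replicate 3, 120 genes (0.652%) were lower and 90 (0.489%) were higher. On replicate 2, 3144 genes were lower (17.1%) and 730 were higher (3.96%). Replicates 1 and 3 shared 32 lower genes (0.174%) and 9 higher genes (0.0489%). These arrays are all set against the same 2 controls. Of the 32 lower genes, 30 (93.8%) were also lower on replicate 2, and of the 9 higher genes 3 (33.3%) were also higher there. Seen from replicate 2, the shared genes were 0.954% of its lower and 0.411% of its higher genes. So 30 genes (0.163%) were at least 1 lower and 3 genes (0.0163%) at least 1 higher on all 3 arrays. For 3002 genes (16.3%), replicate 2 alone was lower by this measure, and for 718 (3.9%) it alone was higher.

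With no minimum distance, 2969 genes (16.1%) lay below both controls on all 3 arrays and 4461 (24.2%) above both. With a distance of 0.5 the counts were 183 (0.994%) and 21 (0.114%). The least distant genes still counted were NRG1 at 1.04 and RNU4-2 at 1.15, and the nearest ones not counted were TLL1 at 0.98 among the lower and VCAM1 at 0.82 among the higher. The counts of 30 and 3 rested on every array. Without Ctrl shRNA replicate 1 they were 100 and 7, without SHP2 sh2 replicate 1 they were 68 and 5, and without SHP2 sh2 replicate 3 they were 104 and 10. Without Ctrl shRNA replicate 2 there were 52 lower genes, and without SHP2 sh2 replicate 2 there were 9 higher ones. Leaving out an array can only loosen this rule, so all 30 and all 3 genes had to stay among those counted. Their retention is therefore not a test.

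**Figure D2:**
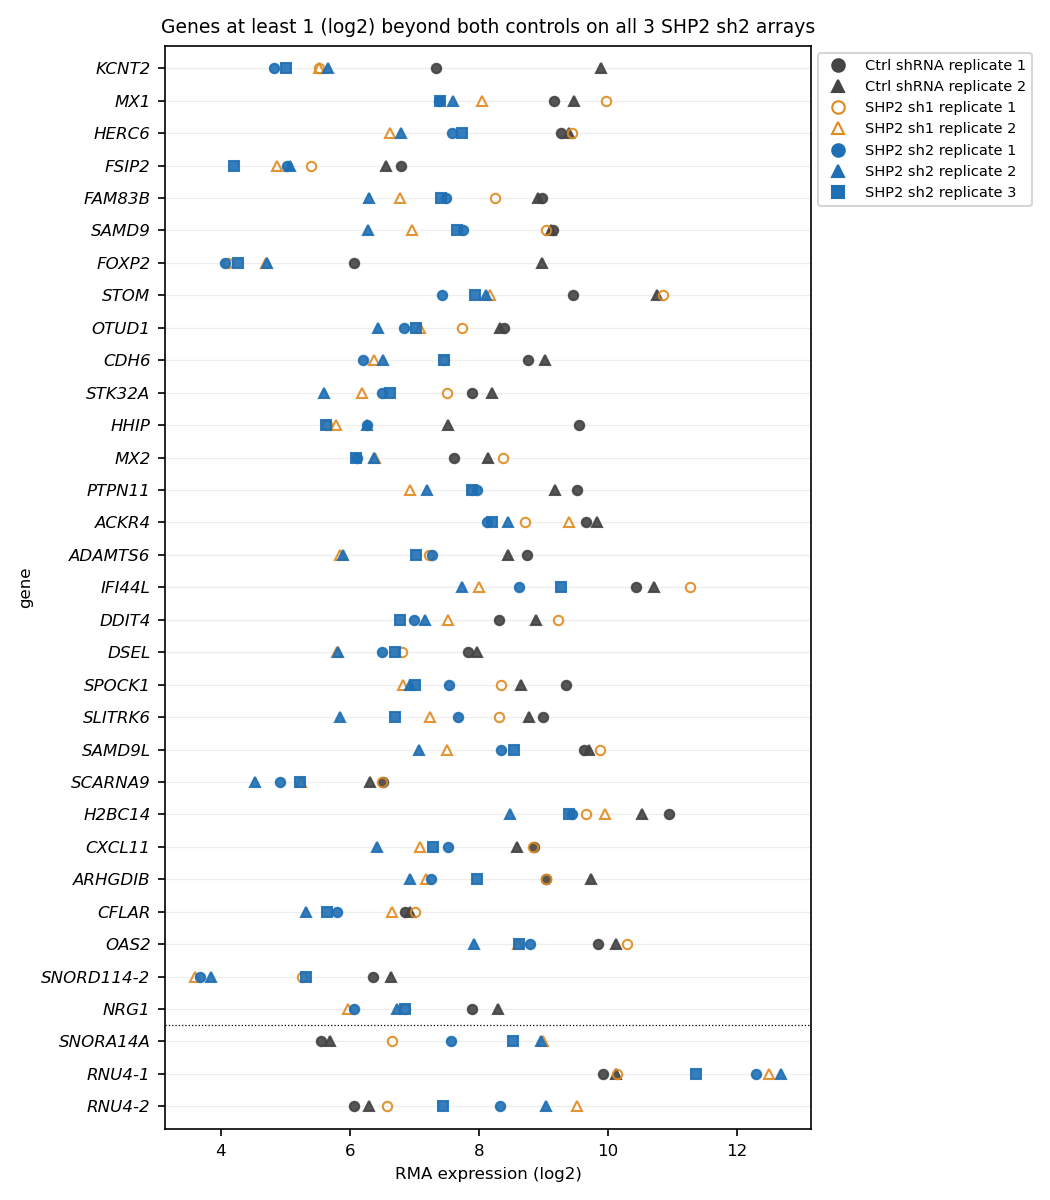
RMA expression (x axis, log2) of the 30 genes at least 1 below both controls (above the dotted line) and the 3 genes at least 1 above both (below it) on all 3 SHP2 sh2 arrays; each point is 1 array, and SHP2 sh1 arrays are shown as open symbols. The filled blue SHP2 sh2 points lie apart from the grey control points by 1.04 to 1.87 in every row.

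PTPN11, the targeted gene, was among the 30. It read 9.53 and 9.18 on the control arrays and 7.96, 7.20 and 7.89 on the SHP2 sh2 arrays. Every SHP2 sh2 array lay below both controls, by 1.21 at the nearest, and replicate 2 was the lowest. The mean difference was −1.67 (SE 0.37, a 3.18-fold lower signal), with an unadjusted p of 0.00329 and an adjusted p of 0.667 in limma, and PTPN11 ranked 14 of all genes by p. Without replicate 2 the signal was 2.68-fold lower. On the SHP2 sh1 arrays PTPN11 read 7.90 and 6.93, and the test of SHP2 sh2 against SHP2 sh1 gave a difference of 0.27 with an adjusted p of 1.00.

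Partners of SHP2 at the receptor were examined next. Of 14 measured docking and adaptor genes, 2 lay below and 3 above both controls on all 3 arrays (14.3% and 21.4%, against 16.1% and 24.2% of all genes), and none by 1. GAB2, a docking protein that recruits SHP2, read 6.30 on both controls and 6.64, 6.85 and 6.69 with SHP2 sh2, a difference of 0.43 (SE 0.18). SOS2, an exchange factor that loads RAS with GTP, read 8.72 and 9.04 on the controls and 8.25, 7.81 and 8.66 with SHP2 sh2. Its replicate 3 was only 0.065 below the lower control.

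Among 15 receptor tyrosine kinases, 1 lay below and 4 above both controls on all 3 arrays. These were 6.67% and 26.7%, against 16.1% and 24.2% of all genes. FGFR1, a receptor for fibroblast growth factors, stood out with 6.45 and 6.23 on the controls and 7.09, 7.54 and 7.92 with SHP2 sh2. It was higher on all 3 arrays by at least 0.64, with replicate 3 rather than replicate 2 the highest, and the mean difference was 1.18 (SE 0.29, limma unadjusted p of 0.00503, adjusted p of 0.667). FGFR4 read 6.28 and 6.13 on the controls and 6.39, 7.06 and 6.76 with SHP2 sh2. NRG1, which encodes the ligand neuregulin of the ERBB3 and ERBB4 receptors, was in the group of 30, at 7.89 and 8.30 on the controls and 6.07, 6.74 and 6.85 with SHP2 sh2. Its difference was −1.54 (SE 0.37), and here replicate 1 was the lowest.

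In the RAS to ERK cascade, 3 of 13 measured genes lay below and 2 above both controls on all 3 arrays. These were 23.1% and 15.4%, against 16.1% and 24.2% of all genes. MAPK3, which encodes ERK1, read 9.22 and 9.31 on the controls and 9.48, 9.48 and 9.58 with SHP2 sh2, 0.25 higher (SE 0.17). NF1, a GTPase-activating protein that turns RAS off, read 10.26 and 10.19 on the controls. With SHP2 sh2 it read 10.00 and 10.01 on replicates 1 and 3 but 8.60 on replicate 2, so most of its mean difference of −0.69 (SE 0.51) came from that array.

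Of 19 genes that ERK signalling induces, 7 lay below both controls on all 3 arrays and 0 above. These were 36.8% and 0%, against 16.1% and 24.2% of all genes. The median difference of this list was −0.21 on replicate 1, −0.84 on replicate 2 and −0.06 on replicate 3, beside 0.03, 0.18 and 0.03 over all genes. EPHA4, an ephrin receptor, read 8.37 and 8.69 on the controls and 7.50, 7.27 and 6.87 with SHP2 sh2. All 3 arrays were lower by at least 0.87, with replicate 3 the lowest, and the difference of −1.32 (SE 0.25) had one of the 5 smallest p-values among lower genes (limma unadjusted p of 0.00127, adjusted p of 0.667). MYC, the growth-promoting transcription factor, read 10.09 and 10.31 on the controls and 9.77, 9.35 and 9.78 with SHP2 sh2, a difference of −0.56 (SE 0.22). Feedback genes serve as readouts of ERK. DUSP6, which dephosphorylates ERK, read 9.70 and 9.91 on the controls and 8.98, 7.70 and 9.37 with SHP2 sh2, below both on each array. SPRY4, a feedback inhibitor of receptor signalling, read 8.89 and 9.04 on the controls and 8.69, 7.16 and 8.85. It was also below both on each array, by 0.20 and 0.032 on replicates 1 and 3. SPRY2 and SPRED1 were below both on each array too, but other feedback genes were not. DUSP4 lay between the controls on replicates 1 and 2 and 0.45 above both on replicate 3. DUSP5 lay below both on replicates 1 and 2 and 0.48 above both on replicate 3. SPRY1 was below both controls on no array. These feedback genes were chosen for description after their values were seen.

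Among 23 ETS family factors, 10 lay below and 2 above both controls on all 3 arrays, and none by 1. These were 43.5% and 8.7%, against 16.1% and 24.2% of all genes. ETS1, a factor that the study followed, read 8.63 and 8.65 on the controls and 8.67, 8.08 and 8.54 with SHP2 sh2. Replicate 1 lay above both controls, and the difference was −0.21 (SE 0.24). ELF1 read 9.40 and 9.83 on the controls and 8.55, 7.41 and 9.18 with SHP2 sh2, below both on each array. FLI1 varied in the controls, at 8.02 and 7.10, and its SHP2 sh2 values of 6.58, 6.19 and 7.26 overlapped them. Of 11 AP-1 factors 2 lay below and 1 above both controls (18.2% and 9.09%). JUN read 8.95 and 9.50 on the controls and 8.63, 7.89 and 8.57 with SHP2 sh2.

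Interferon-stimulated genes made up 7 of the 30 lower genes, namely MX1, HERC6, SAMD9, MX2, IFI44L, SAMD9L and OAS2. These encode antiviral proteins: MX1 and MX2 are dynamin-like GTPases, OAS2 makes the oligoadenylates that activate RNase L, and HERC6 belongs to a family of ubiquitin ligases. Over the list, 36 of 38 genes were measured. Below both controls on all 3 arrays were 27 (75%, against 16.1% of all genes), while 0 lay above (against 24.2% of all genes). On replicates 1 and 3 alone 29 of 36 lay below both, against 17.9% of all genes. At least 1 below on all 3 arrays were 19.4% of the list, against 0.163% of all genes. The median difference of the list was −0.94 on replicate 1, −1.59 on replicate 2 and −0.89 on replicate 3. Between the 2 controls, OASL, IFIT2, EPSTI1 and RSAD2 differed by 1.07 to 1.52. The 36 genes had a median level of 8.66 and 8.78 on the control arrays and of 7.39 to 7.63 on the SHP2 sh2 arrays. The median log2 fold change of −1.29 was −0.96 without replicate 2, and it stayed between −1.36 and −1.17 under cyclic loess, quantile normalization and median centring.

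MX1 read 9.16 and 9.47 on the controls and 7.38, 7.60 and 7.40 with SHP2 sh2. The 3 arrays lay within 0.23 of each other, and replicate 2 was the highest of them. The difference was −1.86 (SE 0.52), a 3.62-fold lower signal, with a limma unadjusted p of 0.00974 and an adjusted p of 0.667. MX2 behaved alike, at 7.61 and 8.14 on the controls and 6.10, 6.37 and 6.09 with SHP2 sh2. In contrast SAMD9, a host restriction factor, was lowest on replicate 2, with 9.14 and 9.12 on the controls and 7.75, 6.29 and 7.66 with SHP2 sh2. IFI44L showed the same order, at 10.44 and 10.72 on the controls and 8.61, 7.74 and 9.27 with SHP2 sh2. HERC6 read 9.27 and 9.40 on the controls and 7.59, 6.79 and 7.74 with SHP2 sh2.

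In other members the SHP2 sh2 array nearest to the controls lay less than 1 below both. BST2, which tethers budding virus particles to the cell, read 9.31 and 9.57 on the controls and 8.49, 7.54 and 8.002 with SHP2 sh2 (difference −1.43, SE 0.32). IFITM1, a membrane protein that limits virus entry, read 11.41 and 11.82 on the controls and 10.50, 10.10 and 9.91 with SHP2 sh2 (difference −1.44, SE 0.38). For both, all 3 arrays were apart from the controls, and for IFITM1 replicate 3 was the lowest. IRF9, the DNA-binding subunit of the factor that interferon activates, read 8.94 and 9.11 on the controls and 8.02, 8.11 and 8.58 with SHP2 sh2 (difference −0.79, SE 0.28). Not every member was lower. ISG15, the ubiquitin-like modifier, read 7.53 and 7.23 on the controls and 7.34, 7.80 and 7.30 with SHP2 sh2, and IRF7, ISG20, CMPK2 and UBE2L6 had differences of 0.01 to 0.13. BST2, IFITM1, IRF9, ISG15 and these 4 genes were picked after their values were seen.

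The SHP2 sh1 arrays shared these controls and differed from each other. MX1 read 9.96 and 8.05 on SHP2 sh1 replicates 1 and 2, and SAMD9 read 9.04 and 6.96. The median difference of the 36 genes from the control mean was 0.24 on SHP2 sh1 replicate 1 and −1.17 on replicate 2. Between the hairpins, MX1 was 1.55 lower with SHP2 sh2 by limma, at an adjusted p of 1.00, and over all genes 0 (0%) passed that test at an adjusted p under 0.05 and 116 (0.63%) had an unadjusted p under 0.05.

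**Figure D3:**
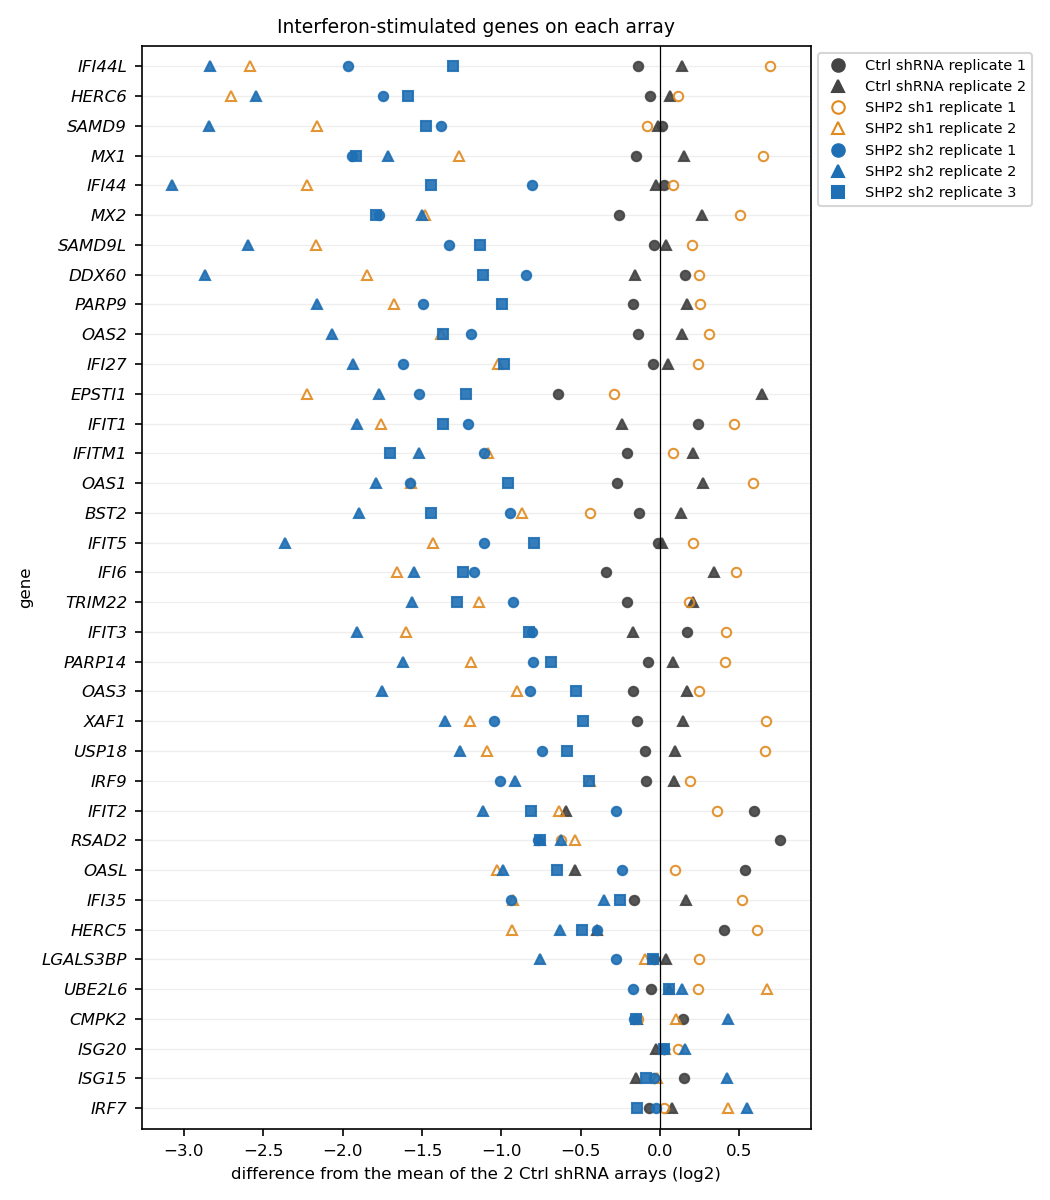
Difference from the mean of the 2 Ctrl shRNA arrays (x axis, log2) of the 36 measured interferon-stimulated genes, with 1 point per array and genes ordered by their mean difference with SHP2 sh2. The filled blue SHP2 sh2 points lie left of both grey control points in 27 genes, and the 5 genes at the bottom lie around 0.

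Upstream of these genes, 9 of 19 interferons, receptors and sensors lay below and 1 above both controls on all 3 arrays. These were 47.4% and 5.26%, against 16.1% and 24.2% of all genes, and none lay beyond by 1. EIF2AK2, which encodes the double-stranded RNA sensor PKR and is itself induced by interferon, came nearest, at 9.42 and 9.76 on the controls and 8.29, 6.48 and 8.56 with SHP2 sh2. It lay at least 0.85 below both, with replicate 2 far lower than the other two. IFNB1, the gene of interferon beta, was at 3.80 and 3.73 on the controls and 3.74, 3.96 and 3.59 with SHP2 sh2, so the groups overlapped at the dim end of the scale. IFNB1 was chosen after its values were seen. SOCS1, a feedback inhibitor of JAK kinases, read 7.21 and 7.51 on the controls and 7.62, 8.03 and 7.82 with SHP2 sh2. In class I antigen processing, 10 of 15 genes were measured, and 7 of these lay below and 1 above both controls on all 3 arrays (70% and 10%). The list medians were −0.25, −1.09 and −0.15 on replicates 1, 2 and 3, at a median control level of 8.59. The part of the lower values of bright genes in these counts was not tested. B2M, the light chain of class I molecules, read 10.91 and 11.16 on the controls and 10.71, 10.04 and 10.64 with SHP2 sh2.

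The promoters of the interferon-stimulated genes were searched for the letters of the response element, GAAA and again GAAA after any 2 bases, on both strands, from 250 bases before to 50 bases after the start, in the windows of RefSeq (GRCh38.p14). Of 14221 measured genes with a window, 586 held them (4.12%). Of the 29 interferon-stimulated genes with a window 21 held them (72.4%), among them 3 of the 5 with a window that lay at least 1 below both controls. Of the 15 other genes with a window that were at least 1 lower, 0 did. The letters CCGGAAG of ETS-type sites were in 16.8% of all measured genes with a window, in 3 of the 29 interferon-stimulated genes (10.3%) and in 1 of the 15 others, KCNT2. The E2F-type letters TTCCCGC were in 10.9% of all, in 5 of the 29 (17.2%) and in 1 of the 15, STOM. These motifs were also searched on both strands and can share letters only at their ends. A match is a description of the letters and not of bound factors. The windows of MX1, SAMD9 and IFI44L are shown because these 3 genes combine the letters, in capitals, with the lower values above.
MX1, chr21:41420308-41420607, plus strand: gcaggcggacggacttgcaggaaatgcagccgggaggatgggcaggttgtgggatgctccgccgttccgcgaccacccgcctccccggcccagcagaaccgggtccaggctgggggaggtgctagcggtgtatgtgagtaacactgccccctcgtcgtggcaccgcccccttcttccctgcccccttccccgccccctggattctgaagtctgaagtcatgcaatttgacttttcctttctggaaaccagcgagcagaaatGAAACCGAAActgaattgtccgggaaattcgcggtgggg
SAMD9, chr7:93117930-93118229, minus strand: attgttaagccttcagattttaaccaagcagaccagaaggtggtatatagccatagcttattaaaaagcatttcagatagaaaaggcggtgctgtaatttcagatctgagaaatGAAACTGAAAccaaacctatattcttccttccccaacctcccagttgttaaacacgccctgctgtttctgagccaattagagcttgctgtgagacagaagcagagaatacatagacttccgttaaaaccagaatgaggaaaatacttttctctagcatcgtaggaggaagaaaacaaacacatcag
IFI44L, chr1:78620198-78620497, plus strand: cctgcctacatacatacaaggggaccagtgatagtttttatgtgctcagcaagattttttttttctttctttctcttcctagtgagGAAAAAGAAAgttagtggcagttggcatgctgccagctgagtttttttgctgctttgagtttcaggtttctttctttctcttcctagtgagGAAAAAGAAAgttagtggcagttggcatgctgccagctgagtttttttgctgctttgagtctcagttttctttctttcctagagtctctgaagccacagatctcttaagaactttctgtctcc

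In this window of MX1 the letters began at base 12 of the transcript, in SAMD9 at −136 from the start, and in IFI44L, whose window holds them 2 times, at −164 and −73. A second RefSeq window of MX1, chr21:41431800-41432099 and not shown, held them on the opposite strand at −196.

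The other 22 lower genes besides PTPN11 had varied roles, and 4 of the 30 rested on controls that differed from each other by at least 1 (13.3%, against 94 of 18417 genes or 0.51%). For 19 of the 30, both SHP2 sh1 arrays also lay below both controls (63.3%, against 12.3% of all genes). Both hairpins were set against the same 2 controls, so this overlap is not independent. KCNT2, a sodium-activated potassium channel, had the greatest distance, 1.69. It read 7.34 and 9.90 on the controls and 4.82, 5.66 and 5.01 with SHP2 sh2 (difference −3.46, SE 0.70). FOXP2, a forkhead transcription factor, read 6.07 and 8.98 on the controls and 4.06, 4.71 and 4.27 with SHP2 sh2. HHIP, which binds and sequesters Hedgehog proteins, read 9.55 and 7.52 on the controls and 6.26, 6.26 and 5.62 with SHP2 sh2. STOM, the membrane protein stomatin, read 9.45 and 10.76 on the controls and 7.42, 8.11 and 7.93 with SHP2 sh2. All SHP2 sh2 arrays of these genes were below both controls, but the size of each difference depended on which control was taken.

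CDH6, a cadherin, read 8.76 and 9.02 on the controls and 6.20, 6.51 and 7.46 with SHP2 sh2, a 4.48-fold lower signal with replicate 3 the nearest to the controls. SPOCK1, a matrix proteoglycan, read 9.35 and 8.65 on the controls and 7.53, 6.93 and 7.01 with SHP2 sh2. ADAMTS6, a secreted metalloproteinase, read 8.75 and 8.45 on the controls and 7.27, 5.89 and 7.02 with SHP2 sh2. Its replicate 2 was more than 1 below the other two, while replicates 1 and 3 differed from each other by 0.24.

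CFLAR and ACKR4 had the smallest p-values of all genes in the fit. CFLAR, which encodes the caspase-8 inhibitor FLIP, read 6.86 and 6.93 on the controls and 5.79, 5.32 and 5.65 with SHP2 sh2 (difference −1.30, SE 0.23, limma unadjusted p of 0.000819 and adjusted p of 0.667). ACKR4, a decoy receptor that removes chemokines, read 9.66 and 9.83 on the controls and 8.12, 8.45 and 8.20 with SHP2 sh2 (difference −1.49, SE 0.26). Both were apart from the controls on every array, and for ACKR4 replicate 2 was the highest of the 3. Each gene has 2 probes, and with their mean neither was at least 1 lower. CXCL11, an interferon-inducible chemokine that was not in the list, read 8.85 and 8.59 on the controls and 7.52, 6.41 and 7.28 with SHP2 sh2. OTUD1, a deubiquitinase, read 8.38 and 8.33 on the controls and 6.84, 6.43 and 7.02 with SHP2 sh2 (difference −1.59, SE 0.28).

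FSIP2, a sperm fibrous sheath protein, read 6.79 and 6.56 on the controls and 5.02, 5.07 and 4.20 with SHP2 sh2 (difference −1.91, SE 0.33). DDIT4, a stress-induced inhibitor of mTORC1, read 8.31 and 8.88 on the controls and 6.999, 7.16 and 6.77 with SHP2 sh2. FAM83B, a signalling scaffold linked to RAF, read 8.97 and 8.91 on the controls and 7.50, 6.29 and 7.41 with SHP2 sh2. Replicate 2 of FAM83B was more than 1 below the others, while for DDIT4 replicate 3 was the lowest. STK32A, SLITRK6, DSEL, H2BC14, SCARNA9, ARHGDIB and SNORD114-2 completed the group, with nearest distances of 1.05 to 1.27. Of the 30 genes, 28 were protein-coding. The ones described outside the rule for named genes (IFI44L, SPOCK1, ADAMTS6, CXCL11 and NRG1) were picked after their values were seen. Under quantile normalization or cyclic loess ACKR4, ARHGDIB, CXCL11, DDIT4, H2BC14, NRG1, OAS2, SLITRK6, SPOCK1 or STOM fell short of 1 in at least 1 of the 2, and with another probe or the mean of probes CFLAR, NRG1, SCARNA9, ACKR4 or FSIP2 did.

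The 3 genes that were higher on all arrays encode small nuclear and nucleolar RNAs. SNORA14A, a small nucleolar RNA of the type that guides pseudouridylation, read 5.55 and 5.69 on the controls and 7.56, 8.95 and 8.52 with SHP2 sh2 (difference 2.73, SE 0.71, limma unadjusted p of 0.00705 and adjusted p of 0.667). RNU4-1, a copy of the U4 RNA of the spliceosome, read 9.92 and 10.13 on the controls and 12.30, 12.69 and 11.36 with SHP2 sh2. RNU4-2 read 6.06 and 6.29 on the controls and 8.32, 9.04 and 7.44 with SHP2 sh2. The SHP2 sh2 arrays of each were apart from the controls by more than 1.1, with replicate 2 the highest. For all 3 genes both SHP2 sh1 arrays also lay above both controls, for RNU4-1 narrowly on SHP2 sh1 replicate 1, at 10.14. RNU4-1 and RNU4-2 are near-identical copies, so the probes may read both and the gene is uncertain. Of 20 small nuclear RNA genes measured, 2 (10%) were higher by at least 0.5 on all 3 arrays, against 0.114% of all genes. These 2 were RNU4-1 and RNU4-2 themselves, so the share is no further evidence. Of 175 small nucleolar RNA genes, 1 (0.571%) was higher and 6 were lower by this distance. Both classes were chosen after the values were seen.

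Next among the higher genes came VCAM1, an adhesion molecule induced by inflammation, at 6.09 and 5.95 on the controls and 6.90, 6.90 and 7.25 with SHP2 sh2 (difference 1.00, SE 0.22). L1CAM, another adhesion molecule, read 6.14 and 5.98 on the controls and 6.83, 6.90 and 6.996 with SHP2 sh2. DTX4, a ubiquitin ligase of the Deltex family, read 7.65 and 7.27 on the controls and 8.34, 8.31 and 8.49 with SHP2 sh2 (difference 0.92, SE 0.20). In these 3 genes the SHP2 sh2 arrays lay within 0.35 of each other and replicate 2 did not stand out. ATP2A1, a calcium pump of muscle, and CKM, the muscle creatine kinase, were higher on all 3 arrays but mainly on replicate 2. ATP2A1 read 6.60 and 6.81 on the controls and 7.65, 9.37 and 7.55 with SHP2 sh2, and CKM read 5.83 and 5.95 on the controls and 6.61, 8.50 and 6.81.

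Cytokine genes were a question of the study. Of 24 cytokines and NF-kB targets, 2 lay below and 7 above both controls on all 3 arrays. These were 8.33% and 29.2%, against 16.1% and 24.2% of all genes. The median difference of the list was −0.02, −0.78 and 0.28 on replicates 1, 2 and 3. CXCL8, the gene of IL-8, read 11.27 and 11.38 on the controls and 11.12, 9.44 and 11.25 with SHP2 sh2. Replicates 1 and 3 lay 0.15 and 0.023 below the lower control, and the difference of −0.72 (SE 0.78) had an adjusted p of 0.668 in limma. CXCL1 read 9.76 and 10.02 on the controls and 10.14, 8.54 and 9.98 with SHP2 sh2, and without replicate 2 its difference turned from −0.34 to 0.16. IL32 read 9.61 and 9.58 on the controls and 9.97, 9.29 and 10.49 with SHP2 sh2. TNF and CCL2 were among the 7 genes above both controls on every array. TNF read 6.11 and 6.14 on the controls and 6.77, 6.89 and 7.30 with SHP2 sh2, and CCL2, a chemokine for monocytes, read 5.83 and 6.06 on the controls and 8.59, 8.17 and 6.64. Replicate 3 was the lowest SHP2 sh2 array for CCL2 and the highest for TNF.

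**Figure D4:**
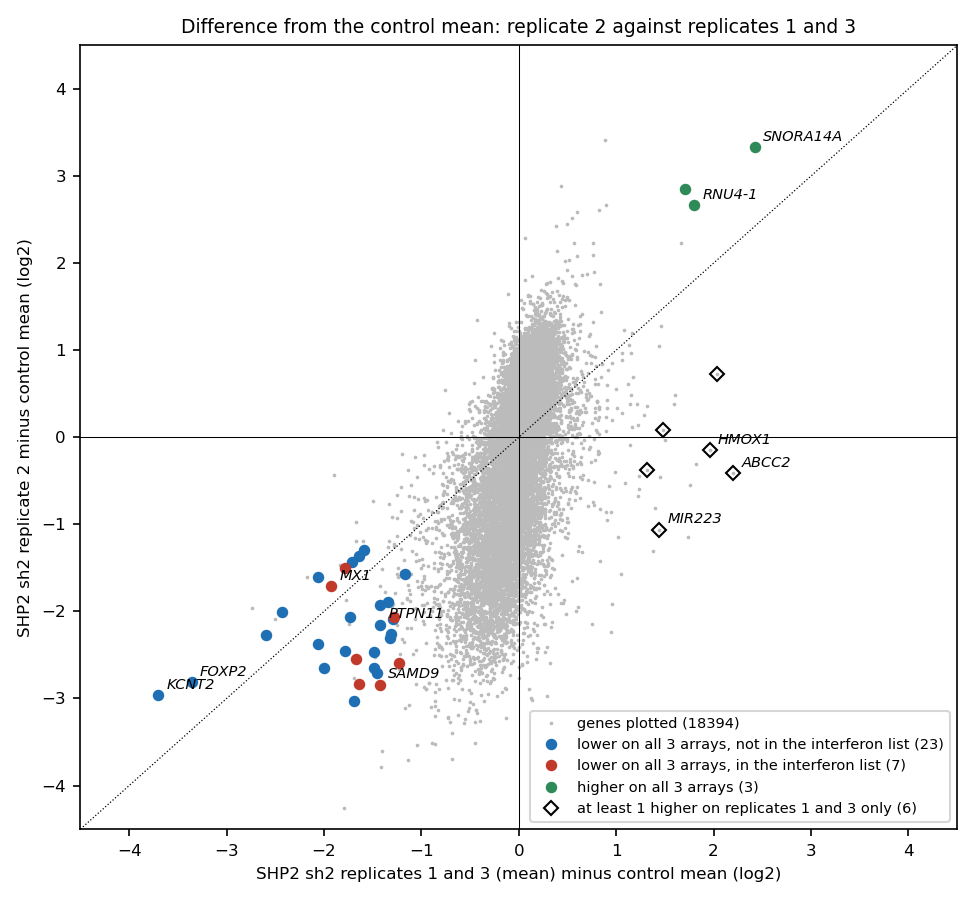
Difference from the control mean of SHP2 sh2 replicate 2 (y axis, log2) against the mean of replicates 1 and 3 (x axis, log2), 1 point per gene, for 18394 genes (sex-linked genes of chromosome Y and 1 of X are not drawn); the dotted line marks equality. The cloud is steeper than the line, and the 30 lower and 3 higher genes lie in opposite corners. For 6 genes (open diamonds) the values were at least 1 higher on replicates 1 and 3 only.

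Some changes of at least 1 on replicates 1 and 3 did not reach 1 on replicate 2. Of the lower genes these were 2, BACH1 and TREM1, named after their values were seen, which lay 0.867 and 0.899 below the lower control on replicate 2. TREM1, an amplifier of inflammation on myeloid cells, had controls that were far apart, at 6.99 and 9.12. The 6 higher ones were ABCC2, HMOX1, IL36B, MIR142, MIR223 and PI3. IL36B, at 5.14 and 4.93 on the controls, read 7.55 and 6.59 on replicates 1 and 3. On replicate 2 it read 5.77, still 0.62 above both controls. HMOX1, which degrades heme and is repressed by BACH1, read 8.40 and 9.09 on the controls, 10.16 and 11.25 on replicates 1 and 3, and 8.60 on replicate 2. ABCC2, an efflux pump for conjugated compounds, read 7.32 and 6.99 on the controls, 8.40 and 10.31 on replicates 1 and 3, and 6.74 on replicate 2. PI3, the elastase inhibitor elafin, read 9.04 and 9.30 on the controls, 10.40 and 10.58 on replicates 1 and 3, and 8.79 on replicate 2. Replicate 2 of HMOX1, ABCC2 and PI3 was thus between the controls or below both. CP, the copper-carrying ceruloplasmin, read 6.40 and 6.65 on the controls and 7.36, 5.38 and 9.16 on replicates 1, 2 and 3. On SHP2 sh1 replicates 1 and 2 HMOX1 read 10.11 and 8.60, ABCC2 9.64 and 6.43, and CP 10.25 and 6.22.

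Among these genes were a pair of microRNA genes known from blood cells, MIR223 and MIR142. MIR223 read 7.34 and 7.36 on the controls, 8.65 and 8.94 on replicates 1 and 3, and 6.29 on replicate 2. MIR142 read 4.95 and 5.47 on the controls, 6.66 and 6.73 on replicates 1 and 3, and 5.30 on replicate 2. Both were higher on replicates 1 and 3 only, and blood cell markers were dim on all arrays, with PTPRC at 4.16 and 4.04 on the controls and 3.90 to 4.36 with SHP2 sh2. Over 10 blood cell markers the median level was 5.94 and 6.12 on the control arrays and 6.12 to 6.72 on the SHP2 sh2 arrays, and the part of these markers in the microRNA values was not tested. None of these 10 markers was below both controls on all 3 SHP2 sh2 arrays and 5 were above both, as were 0 and 6 of 10 endothelial markers, against 16.1% and 24.2% of all genes. The median control levels of these 2 lists were 6.03 and 5.86, below the 6.98 of all genes. Dim genes were higher on replicate 2 in particular, and the part of that pattern in these counts was not tested. The array probes of the 2 microRNA genes do not measure the mature RNA alone. The mature sequences in RefSeq (GRCh38.p14) are given to show which RNAs these genes yield, with the seed, bases 2 to 8, in capitals. No seed is shared among the 4.
hsa-miR-223-3p: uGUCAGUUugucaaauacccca
hsa-miR-223-5p: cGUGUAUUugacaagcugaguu
hsa-miR-142-3p: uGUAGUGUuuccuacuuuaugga
hsa-miR-142-5p: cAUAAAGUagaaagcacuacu

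Lower on replicates 1 and 3 but not on replicate 2 by the rule for named genes were PCDHB2, CFAP47, VN1R4, EML6, ADM and PMFBP1, all by less than 1. ADM, the vasodilator peptide adrenomedullin, read 7.90 and 8.30 on the controls, 7.58 and 7.43 on replicates 1 and 3, and 8.16 on replicate 2. The opposite group, with a large distance on replicate 2 and values between or beyond the controls on the other side on replicates 1 and 3, held CHORDC1, KYNU, ME1, CDC6, RHOBTB3 and SNORD44 on the lower side. CDC6, which loads the replicative helicase, read 8.26 and 8.06 on the controls, 8.14 and 8.58 on replicates 1 and 3, and 5.75 on replicate 2. KYNU, an enzyme of tryptophan breakdown, read 9.91 and 10.05 on the controls, 9.95 and 10.64 on replicates 1 and 3, and 7.39 on replicate 2. Both were lower on 1 SHP2 sh2 array only. On SHP2 sh1 replicates 1 and 2 CDC6 read 8.38 and 6.19, and KYNU 11.02 and 8.15, so both were also below the controls on SHP2 sh1 replicate 2. On the higher side were SNORA75, SNORD116-6, NEB, SOBP, ZNF730 and ASB5, of which SNORA75 read 7.89 and 8.10 on the controls, 8.06 and 7.71 on replicates 1 and 3, and 9.64 on replicate 2. HPRT1, a gene often used for normalization, read 8.34 and 8.27 on the controls, 7.99 and 8.31 on replicates 1 and 3, and 6.52 on replicate 2. On SHP2 sh1 replicates 1 and 2 SNORA75 read 8.06 and 9.79, and HPRT1 8.82 and 6.69.

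Cell division genes differed between replicate 2 and the other SHP2 sh2 arrays. Of 24 G2/M genes, 20 lay at least 1 below both controls on replicate 2, against 17.1% of all genes. On replicates 1 and 3 it was 0 of 24, against 0.624% and 0.652% of all genes. Their median difference was −0.61 on replicate 1, −2.14 on replicate 2 and 0.11 on replicate 3. With all 3 arrays, 4 of 24 lay below both controls and 0 above (16.7% and 0%, against 16.1% and 24.2% of all genes). KIF11, a spindle motor, was one of them, at 8.76 and 8.62 on the controls and 7.76, 5.68 and 8.39 with SHP2 sh2. Of 24 G1/S and replication genes 11 lay below and 1 above both controls on all 3 arrays (45.8% and 4.17%), with medians of −0.20, −1.31 and −0.07 on replicates 1, 2 and 3. On SHP2 sh1 replicates 1 and 2 the medians were −0.24 and −1.57 for G2/M and −0.30 and −0.98 for G1/S genes. UHRF1, which maintains DNA methylation, was the exception in size, at 9.35 and 8.96 on the controls and 8.20, 7.27 and 7.87 with SHP2 sh2. It was at least 0.76 below both controls on each array, with a difference of −1.37 (SE 0.33, limma unadjusted p of 0.00455, adjusted p of 0.667).

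Of 23 hypoxia and glycolysis genes, 15 lay below both controls on all 3 arrays and 0 above, and none did by 1. These were 65.2% and 0%, against 16.1% and 24.2% of all genes. The medians were −0.52, −0.98 and −0.26 on replicates 1, 2 and 3. NDRG1, which is induced by low oxygen, read 10.16 and 10.72 on the controls and 9.46, 9.28 and 9.37 with SHP2 sh2. The 3 arrays were within 0.18 of each other and all at least 0.70 below the controls. STC2, a secreted stanniocalcin, read 7.34 and 7.49 on the controls and 6.35, 6.23 and 6.60 with SHP2 sh2 (difference −1.02, SE 0.23). The median over the list was −0.46 without replicate 2, and −0.45 to −0.75 under the other scalings. On the SHP2 sh1 arrays it was 0.67 on replicate 1 and −0.63 on replicate 2.

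Of 17 cholesterol synthesis genes, 7 lay below and 1 above both controls (41.2% and 5.88%, against 16.1% and 24.2% of all genes). HMGCS1, which makes the precursor of mevalonate, read 8.32 and 8.45 on the controls and 7.44, 7.32 and 7.69 with SHP2 sh2 (difference −0.90, SE 0.32), and its 3 arrays lay close together. Among 18 TGF-beta and YAP targets 8 lay below and 0 above (44.4% and 0%). TGFB2, a ligand of this family, read 7.93 and 7.66 on the controls and 6.998, 7.02 and 6.96 with SHP2 sh2 (difference −0.80, SE 0.21). Its 3 arrays were nearly level, at least 0.64 below both controls. AJUBA, an adaptor at cell junctions, read 9.29 and 9.61 on the controls and 8.72, 8.76 and 8.94 with SHP2 sh2.

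Of 20 mesenchymal genes, 5 lay below and 3 above both controls on all 3 arrays (25% and 15%, against 16.1% and 24.2% of all genes). SNAI2, which encodes the transcription factor Slug, read 11.12 and 11.32 on the controls and 10.26, 10.18 and 10.81 with SHP2 sh2 (difference −0.81, SE 0.24). Among 17 collagen chains 2 lay below and 7 above (11.8% and 41.2%), and COL12A1 differed between the controls, at 8.88 and 9.95, with 8.41, 7.69 and 8.54 in SHP2 sh2. Of 19 epithelial genes 2 lay below and 6 above (10.5% and 31.6%). KRT5, a basal keratin, read 11.87 and 12.32 on the controls and 11.36, 11.66 and 9.03 with SHP2 sh2, so here replicate 3 stood apart. In the 5 remaining lists, 12.5% to 31.6% of members lay below and 6.25% to 37.5% above both controls, and DDIT4, of the integrated stress response, was the only member of these lists at least 1 beyond both.

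**Figure D5:**
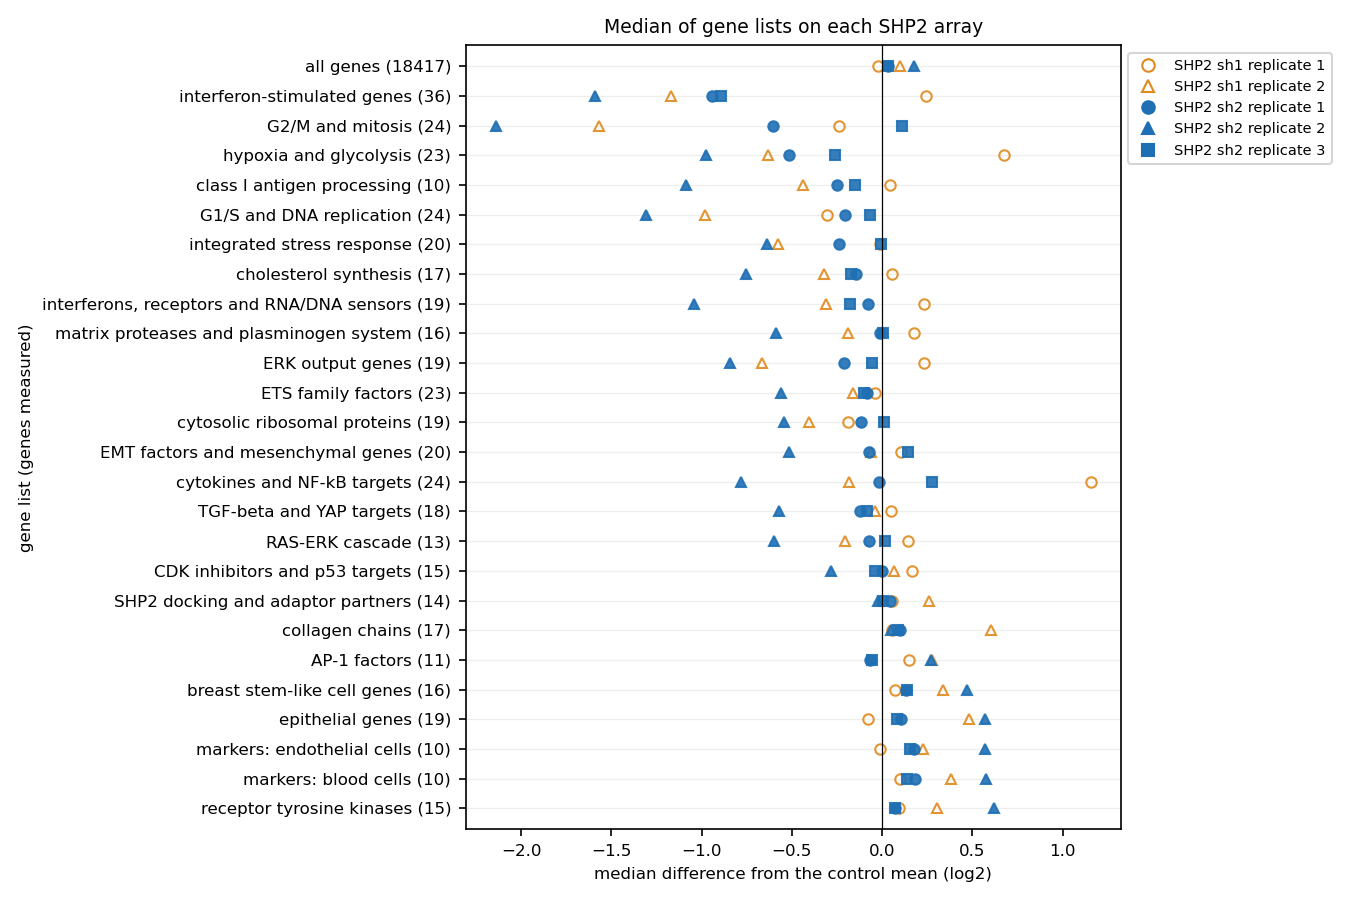
Median difference from the control mean (x axis, log2) of each gene list on each SHP2 array, with the number of genes measured after the name and all genes in the top row. The triangles of SHP2 sh2 replicate 2 lie far from the other SHP2 sh2 arrays in most lists, and for interferon-stimulated genes the 3 SHP2 sh2 arrays lie at −0.94, −1.59 and −0.89.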

How the data were processed

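RNA of SUM159 cells was measured on 7 Human Gene 1.0 ST arrays. The authors made the deposited log2 values in oligo, whose version the sources used here do not give, by robust multi-array averaging, which corrects background, normalizes by quantiles and summarises probes, and which leaves no background or slide step open to change. The labels name a column kit for RNA and the paper's methods name TRIzol. Of 33297 probes, 19460 had 1 symbol in the platform annotation, 1754 had several and 12083 were not listed. Old symbols were replaced by gene ID from RefSeq (GRCh38.p14), which held 19429 of these. Of 18417 genes, 769 had several probes and took the one of largest interquartile range.

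Group means were fitted to all 7 arrays in limma 3.58.1 under R 4.3.3 with eBayes. Two-sided p-values were adjusted over all genes by the Benjamini-Hochberg method. The distance of each SHP2 sh2 array beyond both controls was computed without a test. The fit and the distances were tested on simulated data. The genes central to the study were named, with, in each direction, the 12 of greatest distance on all 3 arrays, up to 6 that held only on replicates 1 and 3, up to 6 only on replicate 2, the 5 of smallest p, and 2 to 4 per list. Clone-type names, chromosome Y and XIST were passed over. The comparison and the 23 gene lists were chosen with earlier results of these data known. Alternatives were other probes per gene, a filter on dim genes, other scalings, left-out arrays, a replicate block, only 5 arrays, an intensity trend and array weights. The number of arrays limits the precision.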

Additional observations from a re-analysis of the deposited data

How the results depend on the processing

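The distance that counts as beyond both controls set the counts: with 0, 0.5 and 1.5 in place of 1, the lower genes numbered 2969, 183 and 3 and the higher genes 4461, 21 and 1. Leaving out 1 array in turn gave 32 to 104 lower and 4 to 10 higher genes, and leaving out replicate 2 of both SHP2 hairpins gave 32 and 9. Other probes, a filter on dim genes and other scalings gave 22 to 37 lower genes, of which 21 to 30 were among the 30, and always the same 3 higher genes. Under cyclic loess the median of the brightest 25% of genes on replicate 2 was −0.46, and the cause was not tested. In limma no gene passed under 17 of 18 alternatives. With gene-by-gene array weights 91 genes were lower and 31 higher at an adjusted p under 0.05, and PTPN11 differed by −1.41 with an adjusted p of 0.0295. That fit gave SHP2 sh2 replicate 2 a weight of 0.116 and each control 3.66. The PTPN11 difference lay between −1.84 and −1.41 under all 18. Same-numbered Ctrl shRNA and SHP2 sh2 arrays correlated at 0.023 and −0.027 in their deviations from the group means. With 2 controls, their deviations are exact opposites. These values thus cannot settle whether the replicate numbers pair the arrays. The replicate 2 arrays of both SHP2 hairpins were alike, at 0.972 over all probes. With the replicate number as a block, which sets aside SHP2 sh2 replicate 3, 0 genes passed and 2706 and 617 had an unadjusted p under 0.05. Of 97 named genes other than PTPN11, 87 kept their direction in every setting. When 1 array at a time was left out, the difference ran from −0.64 to 0.16 for CXCL1, −1.31 to 0.32 for KYNU, −1.21 to 0.29 for ME1, −1.22 to 0.20 for CDC6, −1.32 to 0.081 for RHOBTB3, −0.11 to 0.85 for SNORA75, −0.10 to 0.63 for ZNF730 and −0.082 to 0.63 for ASB5. In these 8 genes it turned without SHP2 sh2 replicate 2, with or without the second SHP2 sh1 array. For CP it ran from −0.15, without SHP2 sh2 replicate 3 and also with the replicate block, to 1.74. Array weights gave 0.19 for CXCL1, 0.051 for KYNU, 0.060 for ME1, 0.017 for CDC6, −0.056 for ZNF730 and −0.00614 for ASB5, and the probe of largest mean gave 0.14 for VN1R4. Counts beyond the controls have no version with a block, trend or weights. With 2 controls, chance differences between them enter every distance.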
